A study of Mus musculus with 16 samples.

Results

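The perineuronal net is a dense matrix that encloses the cell body and proximal dendrites of certain neurons, best known from parvalbumin-positive interneurons. Its backbone is hyaluronan. Lecticans, which are chondroitin sulfate proteoglycans, bind hyaluronan through their globular head, link proteins of the Hapln family hold that bond in place, and tenascin-R crosslinks the lecticans at their other end. The net matures late in postnatal life, and its removal is known to reopen plasticity. Here the transcripts of 10 such genes were followed, out of 55385 in the deposited tables. They were chosen by name, and all 10 passed the filter on low counts. They were the 4 lecticans Acan (aggrecan), Bcan (brevican), Ncan (neurocan) and Vcan (versican), the link proteins Hapln1, Hapln2 and Hapln4, the tenascins Tnr and Tnc, and Ptprz1, a receptor-type tyrosine phosphatase that carries chondroitin sulfate and whose secreted form is phosphacan.

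The study asked which activity-regulated genes depend on the DNA methyltransferase Dnmt3a1. Primary cultures from the hippocampi of newborn C57Bl/6N mice were infected with recombinant adeno-associated virus carrying either Control-shRNA or Dnmt3a1-shRNA2, and were harvested at baseline or after 4 h of bicuculline, which blocks GABA-A receptors and thereby drives network firing. All 4 groups were therefore infected, and all carried the same GFP reporter under the chicken beta-actin promoter, with the shRNA under U6. Each group held 4 libraries from separate neuronal preparations, 16 in all, with 28912697 to 29586355 estimated counts per library. The sample labels name the knockdown without its construct number, which the study gives, and a single knockdown construct was sequenced, so an effect of Dnmt3a1 cannot be told apart from an effect of that one sequence.

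The targeted gene and activity-regulated genes were read first as a check of the labels. Dnmt3a (all isoforms summed) lay at 312 ± 13.8 CPM (SD, n = 4) in Control-shRNA and 44.5 ± 3.66 in Dnmt3a1-shRNA2 at baseline, where CPM is the count relative to the TMM-scaled library size. Arc, Fos and Npas4 rose with bicuculline by 5.64, 6.40 and 7.32 on the log2 scale in Control-shRNA. Markers of neurons, GABAergic neurons and astrocytes were present. Microglial markers were scarce (1.65 to 4.34 CPM summed over 5 genes), and Sox10 and Cldn5, of oligodendrocyte-lineage and endothelial cells, were at or near 0, so the oligodendrocyte lineage lacked a defining marker although its 8 genes summed to 98.6 to 225 CPM.

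A gene was called when its adjusted p-value was under 0.05 and its absolute log2 fold change over 0.5, by edgeR's quasi-likelihood fit, adjusted after Benjamini and Hochberg over all 17222 tested genes. Acan and Tnc were the members called with bicuculline, in both shRNA groups. Their RefSeq promoter windows, the 250 bases before the start on GRCm38.p6, are shown because these are the members that moved together. The Acan window lies at chr7:79052976-79053225 on the plus strand, and its capitals mark TCGTG, a core that Npas4 dimers bind. The Tnc window lies at chr4:64047016-64047265 on the minus strand, and its capitals mark GCGNGGGCG, the Egr family motif, and then TATAAA.
Acan: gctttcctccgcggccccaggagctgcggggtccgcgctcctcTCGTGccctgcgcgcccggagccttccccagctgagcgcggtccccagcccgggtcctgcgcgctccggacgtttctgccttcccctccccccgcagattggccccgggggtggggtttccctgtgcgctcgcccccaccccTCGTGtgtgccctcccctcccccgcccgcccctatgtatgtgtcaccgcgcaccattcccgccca
Tnc: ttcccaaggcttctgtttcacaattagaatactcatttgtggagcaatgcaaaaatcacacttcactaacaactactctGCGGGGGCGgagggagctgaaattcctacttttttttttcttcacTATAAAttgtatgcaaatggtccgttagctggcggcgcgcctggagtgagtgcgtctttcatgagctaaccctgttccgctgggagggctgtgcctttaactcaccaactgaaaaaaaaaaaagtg
In the Acan window TCGTG occurred 207 and 65 bases before the start, and 13.3% of the 32851 mouse windows of that length held it on either strand. In the Tnc window the Egr match began 171 bases before the start and TATAAA 126 bases before it, and 4.70% and 12.4% of windows held these. A second Tnc window in the table, which starts 79 bases further downstream, held the same matches. Members not called with bicuculline held these motifs too, on the other strand. Ptprz1 had an Egr match 44 bases before the start, and Ncan had TATAAA 11 bases before it. No window of a member held TGANTCA (the AP-1 motif, in 6.75% of windows) or TGACGTCA (the full CRE, in 1.55%). The Acan window was 74.4% GC with 26 CpG dinucleotides, against medians of 52.4% and 6 over all windows, and the printed Tnc window was 44.8% GC with 8. Windows were found for 9 of the 10 members, Hapln4 being the exception. A match describes letters only, and no binding or DNA methylation was measured in these libraries.

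Levels can be compared between genes only after correction for transcript length, and TPM, in which counts are divided by transcript length and by the library total, was used for that. In Control-shRNA at baseline Ncan stood first at 78.8 ± 4.99 TPM (SD, n = 4). It was followed by Hapln1 at 66.2 ± 7.24 and Ptprz1 at 65.6 ± 15.5, and neighbours in this leading trio overlapped in range. Tnr at 24.1 ± 3.12 and Bcan at 22.9 ± 9.14 came next and did not differ beyond their spread. All 4 libraries placed both below the leading trio and above Acan, which lay at 8.25 ± 2.72 TPM. Acan exceeded Vcan in 4 of 4 libraries although their ranges overlapped. Vcan at 4.77 ± 0.349 and Hapln4 at 4.55 ± 0.781 overlapped with each other, Tnc lay at 2.05 ± 0.374, and Hapln2 stood last at 0.532 ± 0.368. Hapln2, the link protein of myelinated nodes, was carried by only 3 to 13 estimated counts per library, so that changes of the size seen in Acan or Hapln4 could be resolved for it only with wide intervals.

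With bicuculline Acan and Tnc took higher places in this order. Acan moved from rank 6 to rank 4, past Bcan and Tnr, at 35.7 ± 2.83 TPM in Control-shRNA, above Bcan in 4 of 4 libraries. In Dnmt3a1-shRNA2 it moved from rank 7, below Vcan, to rank 4, at 32.4 ± 5.35 TPM, but there it lay above Bcan in only 2 of 4 libraries. Tnc moved past Vcan in both shRNA groups and past Hapln4 in Control-shRNA, since in Dnmt3a1-shRNA2 it already lay above Hapln4 in 3 of 4 libraries at baseline. At 19.1 ± 7.33 TPM in Dnmt3a1-shRNA2 with bicuculline, Tnc overlapped with Tnr at 19.9 ± 2.57.

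**Figure D1:**
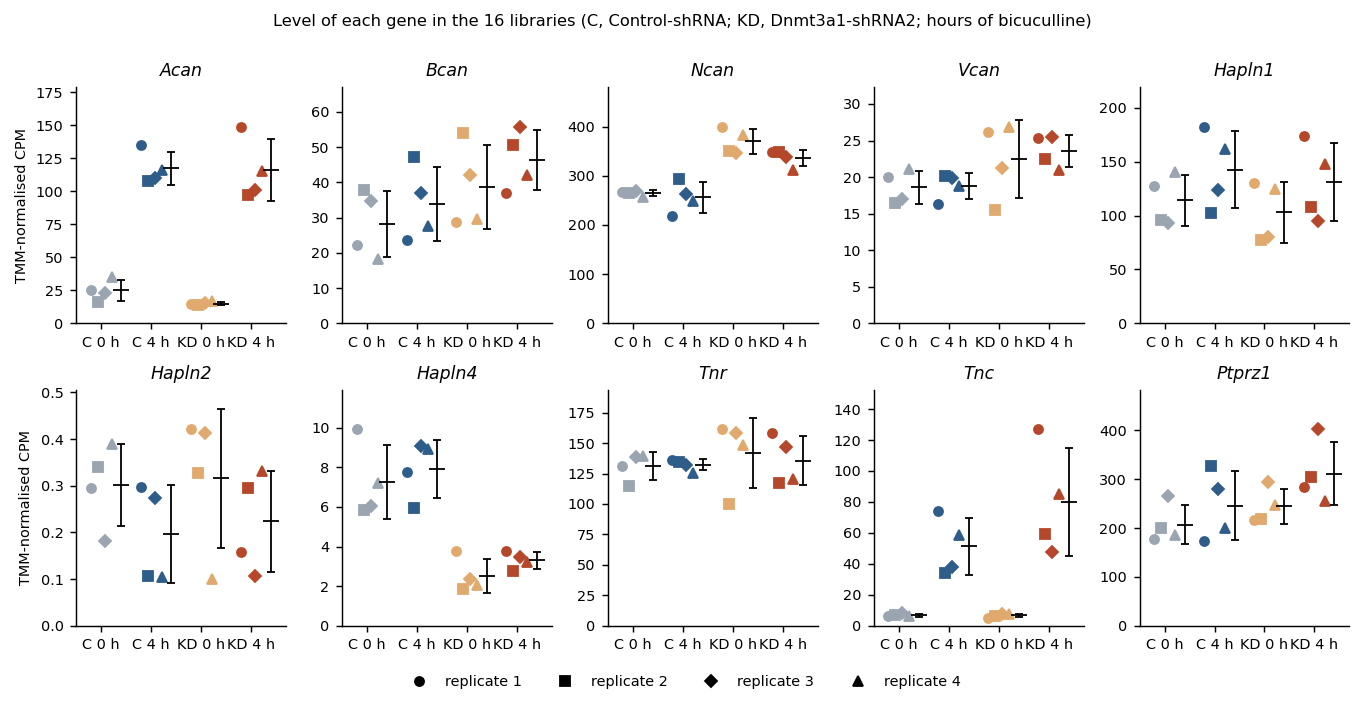
Each panel plots 1 gene as TMM-normalised CPM on a linear axis from 0, with 1 point per library (shape, replicate number) and the mean and SD of 4 libraries beside them, for Control-shRNA (C) and Dnmt3a1-shRNA2 (KD) at baseline (0 h) and after 4 h of bicuculline. Acan and Tnc rise with bicuculline in both shRNA groups, Hapln4 lies lower and Ncan higher in both knockdown groups, and the Bcan and Hapln1 points keep a similar order of shapes from group to group.

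Bicuculline raised 2 of the 10 members in Control-shRNA and the same 2 in Dnmt3a1-shRNA2, and lowered none. Of all tested genes 21.9% were called in Control-shRNA and 25.8% in Dnmt3a1-shRNA2, with 10.8% and 12.6% called higher, so the count of members was close to the background. The share called lower was 11.1% and 13.2%. Of all calls in Control-shRNA 50.8% were lower, and 69.0% when counts were scaled by library size only, under which Acan and Tnc stayed called. Without the fold threshold 41.4% and 46.0% had an adjusted p under 0.05, as these 2 members did and no other in this fit, which held no replicate block. The median log2 fold change of the 10 members was 0.19 and 0.31, beside 0.01 and -0.01 over all tested genes.

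Aggrecan is the lectican most closely tied to the mature net. Acan lay at 25.3, 16.4, 22.9 and 35.2 CPM in Control-shRNA baseline replicates 1 to 4, and at 135, 108, 110.3 and 116 with bicuculline. The groups did not overlap, which was so for 39.7% of all tested genes in this comparison and for 40.4% in Dnmt3a1-shRNA2. The rise was 2.23 on the log2 scale (SE 0.18, adjusted p = 2.1e-08), a factor of 4.70. In Dnmt3a1-shRNA2 Acan lay at 14.6, 13.6, 15.1 and 16.5 CPM at baseline and at 149, 97.3, 101 and 115 with bicuculline. The rise there was 2.95 (SE 0.18, adjusted p = 7.1e-10), a factor of 7.73. These are bulk cultures, in which fewer cells of a type and less RNA per cell cannot be told apart, for this gene and for every other.

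Tenascin-C is a hexameric glycoprotein of developing and reactive tissue. Tnc lay at 6.09, 6.58, 8.06 and 6.42 CPM in Control-shRNA at baseline and at 73.9, 33.9, 38.2 and 58.8 CPM with bicuculline. In Dnmt3a1-shRNA2 it lay at 5.20, 6.28, 7.68 and 7.27 CPM at baseline and at 127, 59.4, 47.9 and 85.2 with bicuculline. Again no stimulated library overlapped with its baseline group, but the stimulated libraries spread by a factor of 2.18 in Control-shRNA and 2.65 in Dnmt3a1-shRNA2, with replicate 1 highest and replicate 4 next in both. The rise was 2.91 on the log2 scale (SE 0.29, adjusted p = 3.6e-07) in Control-shRNA and 3.59 (SE 0.30, adjusted p = 2.6e-08) in Dnmt3a1-shRNA2.

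For the 8 members that were not called, baseline and stimulated libraries overlapped. Over all 16 libraries Tnr stayed between 100.1 and 162 CPM, Vcan between 15.5 and 26.9, Ncan between 218 and 399.9, Hapln1 between 77.6 and 183 and Ptprz1 between 174 and 403. The data bound the change with different precision. Tnr, the tenascin that crosslinks lecticans in the net, differed by 0.01 on the log2 scale in Control-shRNA with a 95% interval of -0.25 to 0.28, and Ncan by -0.05 with an interval of -0.21 to 0.11. Vcan differed by 0.02 (-0.28 to 0.31). These intervals do not reach 0.5 in either direction. Those of Bcan (0.26, -0.27 to 0.80), Hapln1 (0.32, -0.14 to 0.79), Ptprz1 (0.24, -0.15 to 0.63) and Hapln4 (0.13, -0.29 to 0.55) do, and that of Hapln2 (-0.61, -1.60 to 0.38) is wide. In Dnmt3a1-shRNA2 the estimates of these 8 lay between -0.49 (Hapln2) and 0.40 (Hapln4), with adjusted p-values of 0.13 or more. Without Dnmt3a1-shRNA2 baseline replicate 1 Hapln4 was called there, at 0.66 with an adjusted p of 0.019. A fit blocked on replicate number gave smaller adjusted p-values for some of these members, all under the fold threshold. Hapln1 differed by 0.31 (adjusted p = 0.0011) in Control-shRNA and 0.35 (0.00034) in Dnmt3a1-shRNA2, and Bcan by 0.27 (0.028) and 0.30 (0.014). In Dnmt3a1-shRNA2 Ptprz1 (0.34, adjusted p = 0.016) and Hapln4 (0.42, adjusted p = 0.039) also fell under 0.05.

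Markers of GABAergic neurons, the cells most often enclosed by nets, moved with bicuculline as well. Of their 6 genes 3 were called higher in each shRNA group, namely Gad1, Gad2 and Sst, while Pvalb differed by 0.16 (adjusted p = 0.46) in Control-shRNA. Among all tested genes 10.8% and 12.6% were called higher in Control-shRNA and Dnmt3a1-shRNA2. Their summed level was 1676 to 1982 CPM at baseline and 2457 to 2800.3 with bicuculline in Control-shRNA, and 1300.3 to 1505 and 2120 to 2488 in Dnmt3a1-shRNA2. Of 5 tested markers of fibroblasts and vessels, 2 were called higher in Control-shRNA and 1 in Dnmt3a1-shRNA2, with sums of 29.4 to 47.8 and 36.7 to 64.1 CPM at baseline and with bicuculline in Control-shRNA. In Dnmt3a1-shRNA2 the sums were 35.7 to 56.2 and 44.9 to 71.4 CPM. The part of either list in the rise of Acan and Tnc was not tested.

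**Figure D2:**
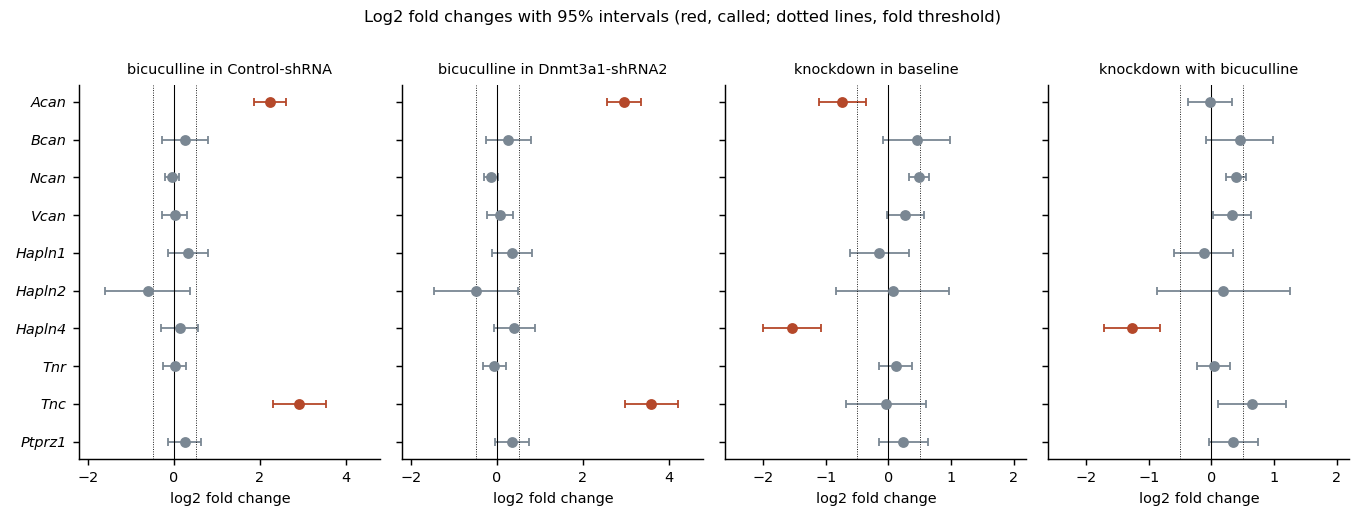
Log2 fold changes of the 10 genes with 95% intervals in the 4 pairwise comparisons, where points to the right of 0 are higher with bicuculline (left pair) or with Dnmt3a1-shRNA2 (right pair), red marks called genes, and the axes of the left and right pairs differ. The called points are Acan at 2.23 and 2.95 and Tnc at 2.91 and 3.59 with bicuculline, and Acan at -0.74 and Hapln4 at -1.54 and -1.27 after knockdown.

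The composition of the families was read from shares of summed TPM. The summed TPM of the 4 lecticans was 115 ± 11.0 at baseline and 130 ± 16.3 with bicuculline in Control-shRNA (SD, n = 4). Of this sum Acan took 7.38% ± 2.99 at baseline and 28.0% ± 5.80 with bicuculline, while Ncan took 68.9% ± 2.76 and 50.6% ± 2.17. In Dnmt3a1-shRNA2 the share of Acan was 3.47% ± 0.342 and 21.8% ± 4.24. Tnc made up 7.85% ± 0.893 of the tenascin sum at baseline and 37.7% ± 8.45 with bicuculline in Control-shRNA, and 7.27% ± 1.90 and 47.9% ± 9.51 in Dnmt3a1-shRNA2. Each of these 4 increases gave p = 0.0286 in a two-sided exact permutation test, the smallest that 4 libraries against 4 allow, and 0.049 after adjustment over 12 such tests. Shares were tested only for Acan, Tnc and Hapln4, members called in the same libraries, so these p-values are no independent support. The share of Hapln4 among the link proteins was 6.38% ± 0.895 at baseline and 5.49% ± 1.21 with bicuculline in Control-shRNA (exact permutation p = 0.286).

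**Figure D3:**
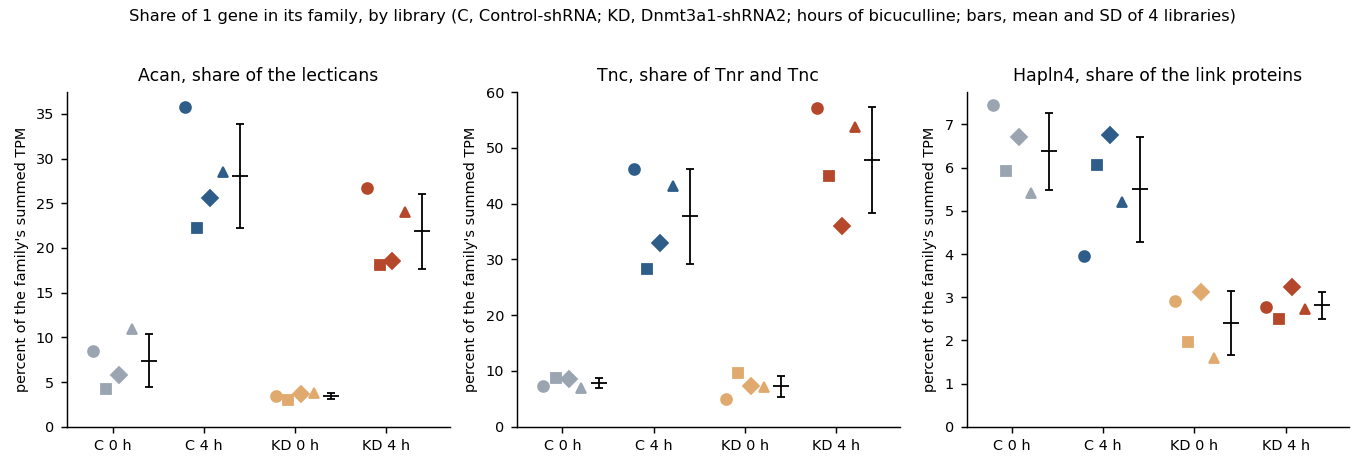
Share of Acan in the summed TPM of the 4 lecticans, of Tnc in that of Tnr and Tnc, and of Hapln4 in that of Hapln1, Hapln2 and Hapln4, as percent per library (shape, replicate number as in the plot of levels) with mean and SD beside. The Acan and Tnc shares are higher in every stimulated library than in every baseline library, and the Hapln4 share is lower in every knockdown library than in every library with Control-shRNA.

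Knockdown gave another pattern. At baseline it lowered 2 of the 10 members, Hapln4 and Acan, and raised none, and with bicuculline it lowered Hapln4 alone, where 5.83% and 5.89% of all tested genes were called, with 4.07% and 3.9% called lower and, at baseline, 1.76% called higher. The baseline comparison and that of bicuculline in Control-shRNA share the same 4 Control-shRNA baseline libraries, and each comparison shares libraries with others in this way.

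Hapln4, also called Bral2, is the link protein that partners brevican at inhibitory synapses and in nets. It lay at 9.94, 5.83, 6.05 and 7.23 CPM in Control-shRNA and at 3.76, 1.86, 2.35 and 2.05 CPM in Dnmt3a1-shRNA2 at baseline, where the groups did not overlap. With bicuculline the values were 7.78, 5.93, 9.10 and 8.94 CPM against 3.76, 2.74, 3.49 and 3.21, again without overlap. The difference was -1.54 on the log2 scale at baseline (SE 0.22, adjusted p = 0.0001) and -1.27 with bicuculline (SE 0.21, adjusted p = 0.00054), and leaving out any 1 library kept it between -1.79 and -1.35 and between -1.38 and -1.19. Among the link proteins its share was 2.40% ± 0.736 at baseline and 2.81% ± 0.318 with bicuculline in Dnmt3a1-shRNA2, below every Control-shRNA library (exact permutation p = 0.0286, the smallest possible, and 0.049 over 12 tests, in both conditions). The share comes from the same libraries as the calls and adds no independent support. Hapln1, which supplies most link protein transcript, differed by -0.15 (95% interval -0.62 to 0.32) and -0.12 (-0.59 to 0.35).

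Acan was called lower after knockdown at baseline and was not called with bicuculline. At baseline the difference was -0.74 (SE 0.18, adjusted p = 0.0089), although the highest knockdown library, at 16.5 CPM, lay just above the lowest Control-shRNA library at 16.4. With bicuculline it was -0.02 (95% interval -0.37 to 0.33, adjusted p = 0.95). Whether the response to bicuculline itself differed was tested by the interaction, which came to 0.72 for Acan (SE 0.24, 95% interval 0.20 to 1.23). Its adjusted p was 0.84, and for Tnc the interaction was 0.68 (SE 0.40, 95% interval -0.16 to 1.52). The interaction gave 0 calls among 17222 genes by edgeR, with 852 genes at an unadjusted p under 0.05 (4.95%), and 18 calls by DESeq2, none of them a member.

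Tnc did not pass the threshold after knockdown in the fit without a replicate block, and with bicuculline its call depended on single libraries and on the block. It differed by -0.04 (95% interval -0.68 to 0.60) at baseline and by 0.64 (0.10 to 1.19, adjusted p = 0.096) with bicuculline. A fit blocked on replicate number gave 0.63 for the latter (adjusted p = 0.021), a call. Leaving out 1 library moved it between 0.32 and 0.87. It was lowest without Dnmt3a1-shRNA2 bicuculline replicate 1 (adjusted p = 0.38), and it was called when Control-shRNA bicuculline replicate 1 was left out (0.87, adjusted p = 0.031) or Dnmt3a1-shRNA2 bicuculline replicate 3 (0.82, adjusted p = 0.029).

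Neurocan, the most abundant lectican, differed in the other direction, by an amount under the fold threshold. Ncan lay at 268, 265, 269.8 and 257 CPM in Control-shRNA and 399.9, 351, 347 and 383 in Dnmt3a1-shRNA2 at baseline, and at 218, 293, 264 and 248 against 349, 347, 338 and 313 with bicuculline. Every knockdown library lay above every control library in both conditions, as was the case, in either direction, for 19.9% and 20.9% of tested genes. The difference was 0.48 (SE 0.08, adjusted p = 0.00028) and 0.40 (SE 0.08, adjusted p = 0.0015) on the log2 scale, and 16.3% and 17.7% of genes had an adjusted p under 0.05. Without Dnmt3a1-shRNA2 baseline replicate 2 or replicate 3 the baseline value was 0.51 in each case and thus a call. Bcan (0.45 and 0.45), Vcan (0.27 and 0.33) and Ptprz1 (0.24 and 0.35) also had positive estimates in both conditions, none with an adjusted p under 0.11 in the fit without a replicate block. Vcan too lay above every control library with bicuculline, at 21.0 to 25.5 against 16.3 to 20.2 CPM, but not at baseline. Tnr stood at 0.12 (-0.15 to 0.38) and 0.04 (-0.23 to 0.30). With the block Bcan differed by 0.46 (adjusted p = 0.0018) and 0.48 (0.0011), and Ptprz1 with bicuculline by 0.35 (0.023), all under the fold threshold.

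Marker levels moved with knockdown too. Of the 6 GABAergic markers Pvalb (-0.55, adjusted p = 0.030) and Sst (-0.52, adjusted p = 0.0092) were called lower at baseline, and their summed level fell outside the Control-shRNA range, as the ranges above show. With bicuculline none of the 6 was called. Of all tested genes 1.76% were called higher and 4.07% lower after knockdown at baseline. With bicuculline 344 and 671 of the 17222 tested genes were called higher and lower. In a list of 6 or 8 genes 1 call is too few to compare with these shares. Of 8 tested astrocyte markers, S100b was called higher in both conditions (0.82 and 0.84), with medians over the list of 0.40 and 0.42. S100b was scarce, at 0.750 ± 0.037 CPM in Control-shRNA and 1.33 ± 0.14 in Dnmt3a1-shRNA2 at baseline. Slc1a2, the most abundant of the list, had lower means, 440 ± 44.3 against 383 ± 51.4 CPM at baseline and 404 ± 36.2 against 372 ± 31.7 with bicuculline. The other tested astrocyte markers had higher means in both conditions. The astrocyte sum was 701 to 903 CPM in Control-shRNA and 714 to 1043 in Dnmt3a1-shRNA2 at baseline. The 5 microglial markers summed to 3.03 to 4.34 CPM in Control-shRNA and 1.65 to 2.71 in Dnmt3a1-shRNA2 at baseline, and to 3.02 to 4.14 and 1.96 to 2.49 with bicuculline, without overlap in either condition. The 6 pan-neuronal markers summed to 6121 to 6850.2 and 6850.5 to 8055 CPM at baseline, where the ranges nearly touched. With bicuculline they summed to 6873 to 7243 and 7386 to 8435 CPM, without overlap. Among single tested genes 19.9% and 20.9% did not overlap at baseline and with bicuculline. In TPM the neuronal sums overlapped in both conditions, at 5378 to 5919 and 5896 to 6474 at baseline. With bicuculline they were 4872 to 5465 and 5299 to 5680 TPM. The microglial sums in TPM overlapped at baseline (3.213 to 5.687 and 1.298 to 3.599) but not with bicuculline. Of the neuronal markers Tubb3 alone was called (0.51 at baseline). The part of these levels in the values of Acan, Hapln4 and Ncan was not tested.

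In the mouse genome each lectican has a link protein gene beside it, with no annotated gene between (GENCODE M21, GRCm38). Ncan (chromosome 8, 70093085 to 70120873, minus strand) and Hapln4 (70083457 to 70090862, plus strand) are separated by 2.22 kb, and after knockdown the former was higher and the latter lower in every library comparison described above. Acan (chromosome 7, 79053483 to 79115099, plus strand) ends 2 bp from the end of Hapln3 on the opposite strand. The values of Hapln3, given for its place, were near the detection limit at 0.415 ± 0.248 CPM at baseline and 0.629 ± 0.189 with bicuculline in Control-shRNA, a difference of 0.59 with an adjusted p of 0.26. Bcan and Hapln2 on chromosome 3 lie 21.5 kb apart, and Vcan and Hapln1 on chromosome 13 lie 43.7 kb apart, and neither pair held a called gene. Tnc lies on chromosome 4 (63959785 to 64047015, minus strand), Tnr on chromosome 1 and Ptprz1 on chromosome 6. In all 10 genes the values sum over isoforms, so the receptor and secreted forms of Ptprz1 and the splice forms of Vcan and Bcan were not separated.

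Several members varied between replicates in an order that recurred from group to group. Bcan lay at 22.2, 37.7, 34.7 and 18.3 CPM in Control-shRNA baseline replicates 1 to 4, and replicates 2 and 3 were the highest pair in all 4 groups. Ptprz1 was highest in replicates 2 and 3 in 3 of the 4 groups, and so was the sum of 9 astrocyte markers, while the sum over the oligodendrocyte lineage had that order in all 4. Hapln1 was highest in replicates 1 and 4 in all 4 groups, as was the sum of GABAergic markers in CPM. In TPM that GABAergic sum was instead lowest in replicate 1 in all 4 groups. It was 2287 TPM in Control-shRNA baseline replicate 1, against 2678, 2681 and 2567 in replicates 2 to 4. The highest library held 1.51 to 2.06 times the lowest for Bcan within a group and 1.51 to 1.83 times for Hapln1. Whether equal numbers mark a shared preparation is not stated in the sources used here.

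**Figure D4:**
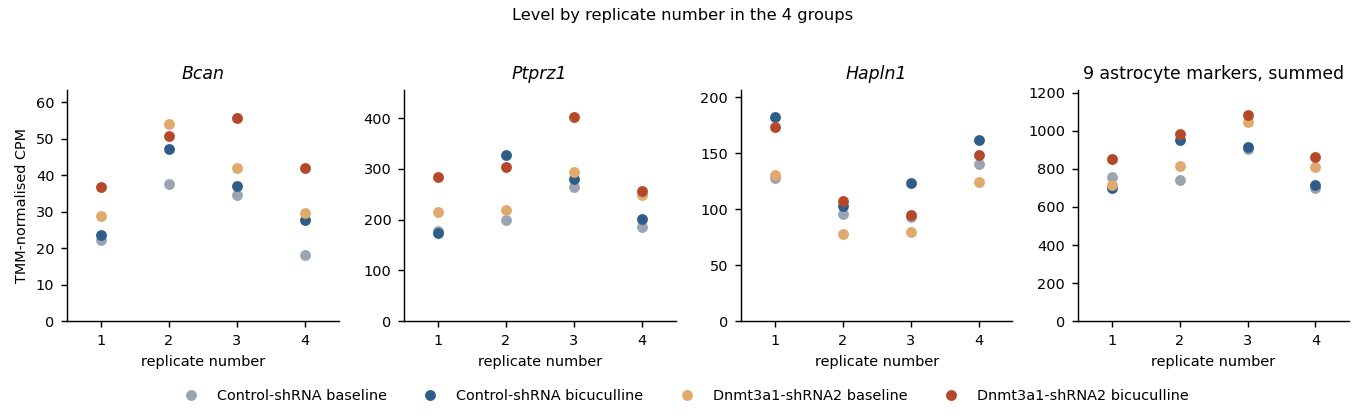
TMM-normalised CPM of Bcan, Ptprz1, Hapln1 and the sum of 9 astrocyte markers against the replicate number, with 1 point per library coloured by group and axes from 0. Bcan is highest at numbers 2 and 3 in every group and Hapln1 at numbers 1 and 4, and replicate numbers have no order in time.

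For each member the tested gene with the most similar course over the 16 libraries was found, by the root mean square (RMS) difference of log2 CPM centred on each gene's own mean, among 13880 genes of at least 1 CPM. For Acan this was Bdnf, the neurotrophin, at an RMS of 0.20, where Acan itself varied with an SD of 1.35. For Tnc it was Lonrf3 at 0.21, beside an SD of 1.64. Bcan was nearest to Acsbg1 (0.09), an acyl-CoA synthetase of astrocytes, Ncan to Sobp (0.06), Vcan to Macf1 (0.12), Ptprz1 to the cholesterol exporter Abca1 (0.12), Tnr to the potassium channel Kcnma1 (0.07) and Hapln4 to the synaptic vesicle gene Syn2 (0.26). Hapln2 was nearest to Nutf2 at 0.40, against an SD of 0.55. These distances describe the same 16 libraries and share their conditions.

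The genes that build, cut and bind the net were read in 5 lists with 61 tested genes of 63. With bicuculline in Control-shRNA 10 rose and 6 fell, where 10.8% and 11.1% of all tested genes were called higher and lower. Their median was 0.19 on the log2 scale, beside 0.01 over all tested genes. After knockdown at baseline 4 rose and none fell, with a median of 0.15. Of all tested genes 1.76% and 4.07% were called higher and lower there. With bicuculline 1 rose and none fell, where 344 and 671 of the 17222 tested genes were called higher and lower.

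Proteases that cut lecticans and their inhibitors had 6 of 14 called higher with bicuculline in Control-shRNA and 7 of 14 in Dnmt3a1-shRNA2, and none lower. Of all tested genes 10.8% and 12.6% were called higher and 11.1% and 13.2% lower. The median of the 14 was 0.45 and 0.53 on the log2 scale, beside 0.01 and -0.01 over all tested genes, and the list was chosen with earlier results known. Adamts1, a protease that cleaves aggrecan, brevican and versican, rose from 25.6 ± 2.5 to 134 ± 12.1 CPM in Control-shRNA (2.39 on the log2 scale, adjusted p = 4.4e-11) and by 2.52 in Dnmt3a1-shRNA2. Adamts5, an aggrecanase, rose by 1.86 and 1.68, and Adamts8 by 1.12 and 1.43. After knockdown Timp2, an inhibitor of matrix metalloproteinases, was higher at 1087 ± 48.4 against 695 ± 41.7 CPM at baseline (0.65, adjusted p = 2.3e-06) and by 0.65 with bicuculline.

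Of 20 enzymes of the chondroitin sulfate chain, bicuculline gave 2 called higher and 3 lower in Control-shRNA and 1 higher and 4 lower in Dnmt3a1-shRNA2. Of all tested genes 10.8% and 12.6% were called higher and 11.1% and 13.2% lower, so the counts in Control-shRNA were close to the background. Chst12, which adds sulfate to chondroitin at the 4-O position of N-acetylgalactosamine, fell from 23.6 ± 2.56 to 4.82 ± 1.05 CPM (-2.29, adjusted p = 1.5e-09) and by 2.42 on the log2 scale in Dnmt3a1-shRNA2. B3galt6, which builds the linker of the chain, fell by 0.82 and 1.07, and Chsy3, a chondroitin synthase, rose by 0.95 and 0.97. After knockdown Csgalnact1, which starts the chain, was called higher at baseline (0.51, adjusted p = 0.0071), and with bicuculline none of the 20 was called.

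Of 9 tested genes for hyaluronan, Cemip2, a hyaluronidase of the cell surface, rose with bicuculline by 1.13 and 1.31 and Hyal2, another hyaluronidase, fell by 0.72 and 0.61, and none was called after knockdown. Among 13 ligands and receptors Itga9, an integrin subunit that binds tenascin-C, rose with bicuculline by 0.87 and 1.26, and Rtn4r, the Nogo receptor, fell by 1.08 and 1.38. Ptprf, a receptor phosphatase that binds chondroitin sulfate, was called higher after knockdown at baseline (0.51, adjusted p = 2.3e-06). Of 5 other proteoglycans of the brain, Tgfbr3 fell with bicuculline by 0.81 and 0.84, and none was called after knockdown.

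**Figure D5:**
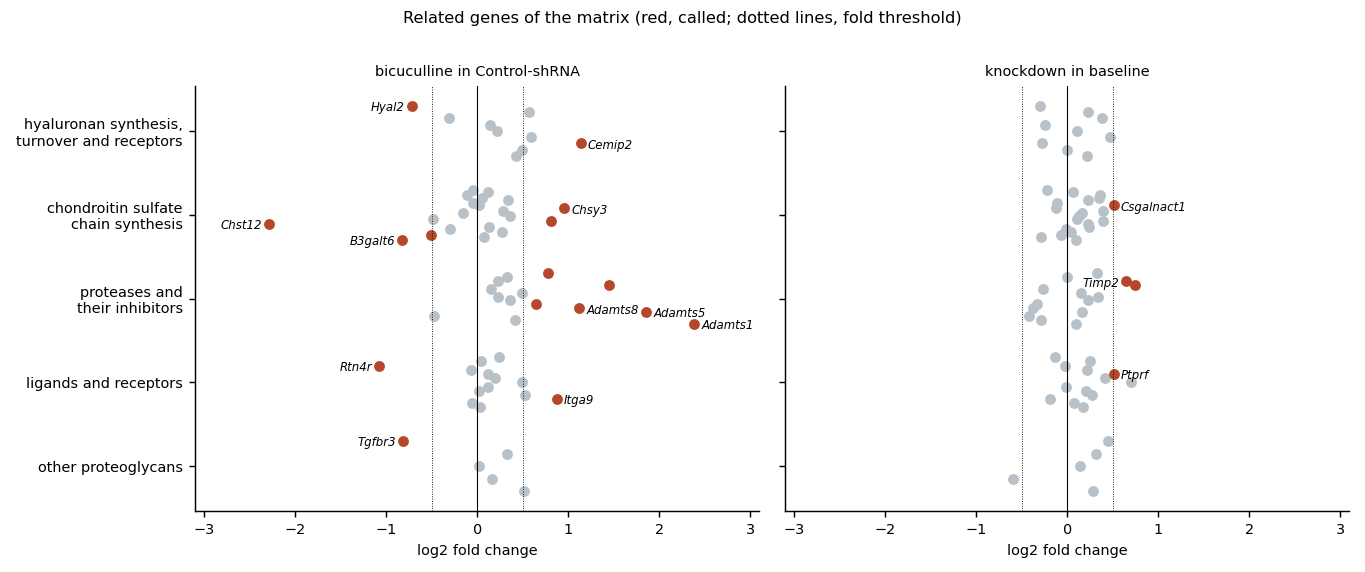
Log2 fold changes of 61 related genes, 1 point each, in 5 lists, for bicuculline in Control-shRNA (left) and knockdown at baseline (right), with called genes in red and up to 3 of them named per list. The left panel holds 10 called genes above 0 and 6 below, and the right panel 4 above and none below.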

How the data were processed

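Per the submitters' processing notes the authors trimmed the reads with Trim Galore 0.6.4 and quantified them with kallisto against GRCm38.p6, and they deposited per library an estimated count and a TPM value for 55385 genes, of which 55144 identifiers matched a symbol. Estimated counts were rounded and fitted in R 4.3.3 by edgeR 4.0.16 (TMM, filter by expression within groups, 1 quasi-likelihood fit of 16 libraries, 17222 genes tested). Levels between genes use the deposited TPM. Intervals are 95%. Replicates are separate neuronal preparations, as the study gives them. Voom with limma, which the study used, served as an alternative. Members, gene lists and motifs were chosen with earlier results of these data known. The genes named are all members, Dnmt3a, Arc, Fos and Npas4, for each related list and comparison the up to 3 called genes that changed most (mean level 1 CPM or more), and the nearest gene of each member (that of Hapln1 is not reported here). Hapln3 and the marker genes were named beside these.

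Same-numbered libraries were compared by Pearson's r of their deviations from group means across genes, which are not independent. It was 0.142 to 0.221 for bicuculline in Control-shRNA and 0.204 to 0.355 for knockdown at baseline, over 0.1 for each number. It was 0.0631 to 0.337 for bicuculline in Dnmt3a1-shRNA2 and 0.0667 to 0.388 for knockdown with bicuculline, where 1 number lay below 0.1. No libraries of a group were duplicates (chi-square per degree of freedom at least 7.57). Alternatives used DESeq2 1.42.0, limma 3.58.1, other scalings, filters and fold thresholds, TPM, a replicate block, a fit of the compared groups only, and each library left out.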

Additional observations from a re-analysis of the deposited data

How the results depend on the processing

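The calls of Acan and Tnc with bicuculline and of Hapln4 after knockdown held, with the same direction, under every alternative run. Acan after knockdown at baseline stayed called in each fit at the fold threshold of 0.5 (-0.89 to -0.53) but not at a threshold of 1, where 1 member was called. Without a fold threshold 7131, 7919, 2809 and 3046 genes were called for bicuculline in Control-shRNA, bicuculline in Dnmt3a1-shRNA2, knockdown at baseline and knockdown with bicuculline, and over 1 the counts were 1378, 1681, 175 and 185. With no fold threshold the 2 members called for knockdown with bicuculline were Hapln4 and Ncan. They were Hapln4 and Tnc with no filter on low counts (Tnc 0.65) and with the replicate block (Tnc 0.63, adjusted p = 0.021). The replicate block changed no other call, although adjusted p-values fell, for Bcan after knockdown at baseline to 0.0018 at 0.46. The interaction gave 3 genes with no filter, 3 with the block and 18 with DESeq2. Leaving out 1 library gave 3619 to 3837, 4271 to 4560, 827 to 1122 and 864 to 1152 genes, 2, 2 to 3, 2 to 3 and 1 to 2 members, and 0 to 1 genes and 0 members for the interaction. Reversals concerned members that were not called in the comparison named. Under library size only, Vcan (-0.14 in Control-shRNA and -0.071 in Dnmt3a1-shRNA2), Hapln4 (-0.020) and Tnr (-0.15) turned with bicuculline, and Hapln2 at baseline (-0.0079) and Tnr with bicuculline (-0.035) after knockdown. That scaling moved the median of all genes by -0.15 and -0.16 with bicuculline, and the share of lower calls from 50.8% to 69.0% in Control-shRNA and from 51.1% to 67.2% in Dnmt3a1-shRNA2, and after knockdown from 69.8% to 85.8% at baseline and from 66.1% to 80.8% with bicuculline. With limma on log2(TPM + 1) these shares of lower calls were 71.4%, 69.4%, 90.9% and 85.5%. With limma on log2(TPM + 1) and log2(TPM + 0.1), respectively, the reversed values were Hapln4 -0.041 and -0.050, Tnr -0.16 and -0.17, and Ptprz1 -0.0016 and -0.0020 for bicuculline in Control-shRNA. For knockdown at baseline they were Hapln2 -0.11 and -0.26 and Tnr -0.012 and -0.014, and with bicuculline Hapln2 -0.046 and -0.038 and Tnr -0.10 and -0.11. Hapln2 at baseline was -0.049 with voom. For the interaction, -0.0020 for Bcan, it turned to 0.0086 with DESeq2 size factors, 0.0095 with library size only, 0.0097 with at least 10 counts in every library, 0.0084 with DESeq2, 0.017 with voom, 0.025 with the replicate block and 0.030 on both TPM scales, on which Hapln1 was -0.073 and -0.074. Leaving out 1 library also turned some signs. For bicuculline in Control-shRNA the ranges were -0.12 to 0.014 for Ncan, -0.040 to 0.080 for Vcan and -0.047 to 0.042 for Tnr, and in Dnmt3a1-shRNA2 -0.072 to 0.17 for Vcan and -0.20 to 0.00030 for Tnr. For knockdown at baseline they were -0.11 to 0.36 for Hapln2 and -0.12 to 0.060 for Tnc, and with bicuculline -0.17 to 0.053 for Acan, -0.29 to 0.016 for Hapln1, -0.067 to 0.44 for Hapln2 and -0.049 to 0.098 for Tnr. For the interaction they were -0.17 to 0.20 for Bcan, -0.087 to 0.15 for Vcan, -0.14 to 0.16 for Hapln1, -0.17 to 0.38 for Hapln2 and -0.037 to 0.28 for Ptprz1. The cause was not tested. At 3 to 13 counts per library depth limits Hapln2.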
